A study of Homo sapiens with 16 samples.

Results

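The cells described here are those of SK-N-AS that carried few transcripts of DNA replication or mitosis. They were chosen by the counts of 12 genes. A cell entered the group when its total was at least 1500 counts, when TYMS, RRM2, PCNA, TOP2A, MKI67, UBE2C, BIRC5, CCNB1, CDC20, PLK1 and CDK1 together had at most 2 counts, and when the histone gene HIST1H4C had at most 3. By this rule 110 cells were chosen out of 431 cells of at least 1500 counts and 603 cells in all. They are called cycle-poor cells, and the remaining 321 cells of at least 1500 counts are called other cells. The cycle-poor cells made up 25.5% of the 431 cells, with an exact Clopper-Pearson interval of 21.5% to 29.9%. This and every interval given here is a 95% interval that covers counting error only.

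SK-N-AS is an established human neuroblastoma line without MYCN amplification, grown here in RPMI1640 medium with fetal calf serum and left untreated. Single cells were sorted into plates and their polyadenylated RNA was read with MARS-seq, a method that counts the 3' ends of transcripts under a barcode for each well. The labels list 16 samples of the same untreated line, but the columns of the count table show no sample, so all cells were read as 1 sample. Both groups share line, culture and treatment, and were parted by the 12 counts alone.

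A dividing cell makes the enzymes of DNA synthesis and new histones in S phase, and the kinases, motors and kinetochore proteins of cell division in G2 and M. In G1 and in resting cells most of these genes are silent, held down by the retinoblastoma family through E2F sites and by the DREAM complex, which binds promoters of mitotic genes. Few cell cycle transcripts in a single cell can therefore belong to G1, to a resting state or to a thin sample of a cycling cell, and RNA counts alone do not tell these apart.

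The 12 genes of the rule set the groups, so their values describe the choice. HIST1H4C, a histone H4 gene of S phase, had 119 counts in cycle-poor cells (439 CPM, the group's summed counts scaled to a standard library size) and 3726 counts in other cells (3537 CPM). The survivin gene BIRC5 had 25 counts in cycle-poor cells and 561 in other cells. The proliferation antigen gene MKI67 had 8 counts in cycle-poor cells and 370 in other cells. The topoisomerase gene TOP2A had 1 count in cycle-poor cells and 50 in other cells, where 12.5% of cells had a count, so on its own it separated few cells. The sum of the 11 genes was 0 in 51, 1 in 36 and 2 in 23 cycle-poor cells, against a median of 7 in other cells. HIST1H4C had 0 counts in 40, 1 in 30, 2 in 31 and 3 in 9 cycle-poor cells, against a median of 8 in other cells. Only 22 of the 110 cells had no count of any of the 12 genes, so "without" such transcripts would be too strong a name, and "poor" is used instead.

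**Figure D1:**
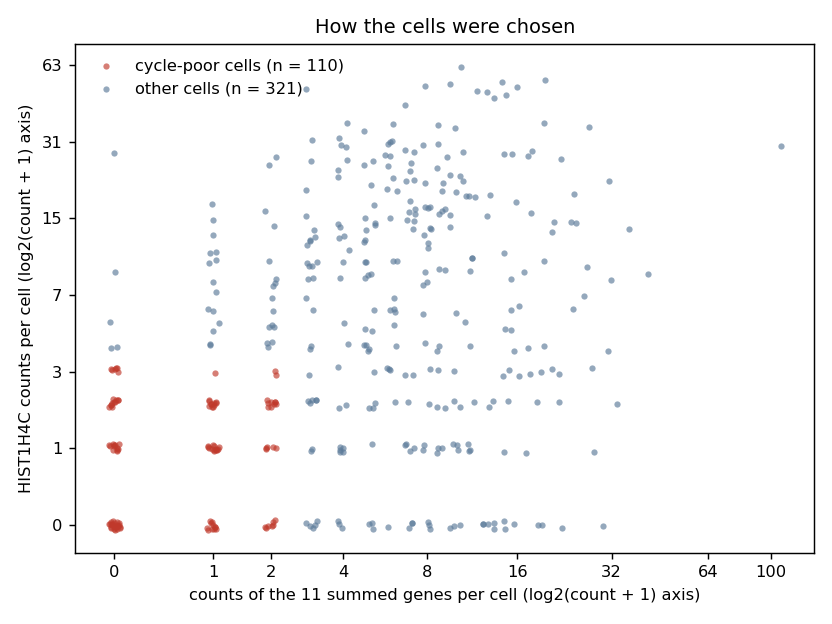
Counts of the 11 summed genes (x axis) and of HIST1H4C (y axis) in each of the 431 cells, both on a log2(count + 1) axis with points shifted slightly to part overlapping cells. Red points are the 110 cycle-poor cells and blue points the 321 other cells, which lie above a sum of 2, above a HIST1H4C count of 3, or both, and continue from the red points with no gap.

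The edge of the rule was read on the mitosis and replication lists. The 30 cycle-poor cells just inside it had 11915 CPM over 3 lists of mitosis genes that leave out the rule's own genes (11168 to 12699), and the 20 other cells just outside had 11819 CPM (10973 to 12712). The replication lists had 6291 CPM (5752 to 6867) just inside and 6735 CPM (6100.1 to 7418) just outside. Away from the edge, the remaining 80 cycle-poor cells had 7952 CPM and the remaining 301 other cells 21803 CPM. Within the cycle-poor cells the mitosis lists stood at 7152 CPM where the sum of the 11 genes was 0, at 9222 CPM where it was 1 and at 12654 CPM where it was 2. Replication genes stood at 4262, 4998 and 6546 CPM over the same 3 steps.

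Depth differed between the groups. Cycle-poor cells had totals of 1508 to 7187 counts (median 2158), and other cells 1502 to 42404 counts (median 2659). The rule reads raw counts, so a shallow cell met it more easily. Its part was measured by thinning every cell to 1500 counts without replacement and by comparing cells of 1500 to 3000 counts alone. The rule read on thinned cells chose 154 cells, which hold all 110 because thinning can only lower a count. Before thinning these 154 cells had a median total of 2396.5 counts and the rest 2615.0, so a smaller difference in depth remained. At 1500 counts the median cycle-poor cell showed 901 genes (quartiles 880 and 941) and the median other cell 933 genes (quartiles 905 and 955). The table's columns form 2 runs of barcodes, called barcode sets, with 45 cycle-poor cells of 198 (22.7%) in set 2 and 65 of 233 (27.9%) in set 1. Of the 364 barcodes, 239 occur in both sets, and 6 mark a cycle-poor cell in each. Over 10 blocks of neighbouring columns the cycle-poor share ran from 11.4% to 40.5%. The deepest cell, with 42404 counts, is an other cell and held 4.02% of that group's counts.

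Both groups carried the markers of the line. The intermediate filament gene VIM had 5520 CPM in cycle-poor cells and 5649 CPM in other cells, with a count in every cell of both. AXL, a receptor kinase of the mesenchymal state, had 446 CPM in cycle-poor cells and 385 CPM in other cells, a log2 ratio of 0.21 (-0.09 to 0.51). The sympathetic lineage factors HAND2 and TBX2 had 332 and 416 CPM in cycle-poor cells and 259 and 408 CPM in other cells. Of 13 immune markers 7 had no count in either group, and the list summed to 111 CPM in cycle-poor cells and 75.9 CPM in other cells. CD68, which many cells carry in lysosomes, gave 70.0% of those counts and PTPRC, the leukocyte antigen CD45, most of the rest. PTPRC had 11 counts in cycle-poor cells (40.5 CPM) and 17 in other cells (16.1 CPM), a log2 ratio of 1.33 (0.09 to 2.51). Of 10 endothelial markers 5 had no count, of 10 Schwann cell precursor markers 6 including SOX10, and of 6 erythroid markers all 6. What part these few counts have in the ratios was not tested.

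Outside the 12 genes, 2467 genes had at least 100 counts in both groups together. Because other cells hold 1053556 counts and cycle-poor cells 271369, a gene could reach 100 counts through other cells alone, and one scarce in cycle-poor cells was kept more easily than one scarce in other cells. Levels were compared as the log2 ratio of CPM, cycle-poor over other cells, with the exact conditional binomial interval. The median ratio of the 2467 genes was -0.03, with quartiles of -0.28 and 0.20, and 46.8% of the genes lay above 0. At a fold of 1.5, which is 0.58 on the log2 scale, 99 genes were higher in cycle-poor cells (4.01% of those measured) and 282 were lower (11.4%). At 2-fold these were 10 and 112, and 28 genes were at least 4-fold lower. With 1 sample there is no replicate and no test, so a gene past the fold is a description of these cells. The same holds for each list below, whose genes were measured in the very cells that the rule parted.

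Lists of cell cycle genes held 88 of the 2467 genes, and 73 of these were at least 1.5-fold lower in cycle-poor cells while 0 were higher. The other 209 lower genes lay outside these lists. The barcode sets, taken apart, gave the pooled sign for 278 of the 282 lower and 89 of the 99 higher genes. Reading the rule on thinned cells kept 167 of the lower and 45 of the higher genes past the fold, and the sign of 281 and 99.

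**Figure D2:**
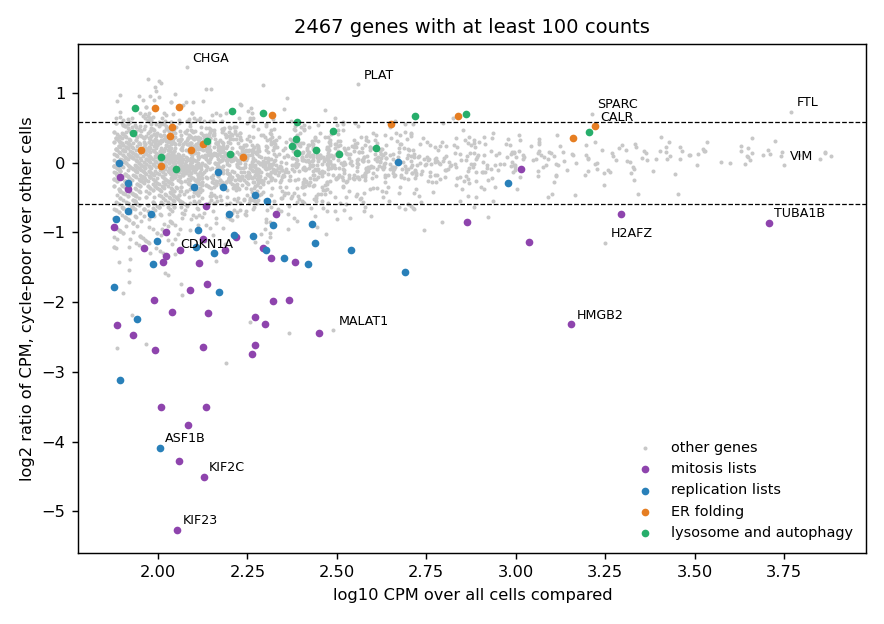
Log2 ratio of CPM in cycle-poor over other cells (y axis) against log10 of the CPM over all cells compared (x axis) for 2467 genes, with dashed lines at a fold of 1.5. Mitosis genes (purple) and replication genes (blue) lie mostly below the lower line, down to KIF23 at -5.26, while endoplasmic reticulum folding genes (orange) and lysosome genes (green) lie mostly above 0 and reach 0.80.

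Mitosis genes were lower in cycle-poor cells. Of 112 members in 3 lists, 45 reached 100 counts, and 42 of these were at least 1.5-fold lower in cycle-poor cells, 0 were higher, and their median log2 ratio was -1.74. Summed over all 112 members the level was 9113 CPM in cycle-poor cells (8757 to 9479) and 21223 CPM in other cells (20946 to 21503), a log2 ratio of -1.22 (-1.28 to -1.16). The ratio was -1.21 in barcode set 1 and -1.23 in set 2, and -1.08 among cells of 1500 to 3000 counts. At 1500 counts per cell, cycle-poor cells had 2 to 49 counts of these genes with a median of 12.5, and other cells 6 to 77 with a median of 31. The ranges overlapped, and the upper quartile of cycle-poor cells, 18.8, lay below the lower quartile of other cells, 23.

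Many of the lowest ratios belonged to motors and regulators of the spindle midzone, chromosome arms and kinetochores, though the replication and chromatin genes ASF1B and EZH2, the histone gene HIST1H1B and TCF19 were also among the 15 lowest. KIF23, the kinesin that builds the central spindle for cytokinesis, had 1 count in cycle-poor cells and 149 in other cells, a log2 ratio of -5.26 (-10.58 to -2.76). KIF2C, a kinesin that takes microtubules apart at the kinetochore, had 2 counts in cycle-poor cells and 176 in other cells, a ratio of -4.50 (-7.56 to -2.63). SHCBP1, a midbody gene, had 2 counts in cycle-poor cells and 150 in other cells, a ratio of -4.27. CDCA5, which encodes sororin and guards cohesin on sister chromatids, had 3 counts in cycle-poor cells and 158 in other cells, a ratio of -3.76. CDCA8, which encodes borealin of the chromosomal passenger complex, had 3 counts in cycle-poor cells and 132 in other cells, a ratio of -3.50. The mitotic entry factor gene CDCA3, in a row it shares with a clone name, had 4 counts in cycle-poor cells and 176 in other cells, also -3.50. HJURP, the chaperone that loads the centromere histone, had 7 counts in cycle-poor cells and 198 in other cells, a ratio of -2.87. TACC3, KIF22, PRC1 and ZWINT, genes of spindle poles, chromosome arms, central spindle and kinetochore, had ratios of -2.74, -2.69, -2.65 and -2.62. With counts this small each fold is loose, and the intervals above show by how much.

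A pair of promoter elements is known from mitotic genes, the CHR element TTTGAA that the DREAM complex and its later activating partners bind, and CCAAT boxes bound by NF-Y. Both were searched on both strands of RefSeq promoter windows, 250 bases before to 50 bases after the start site on GRCh38.p14. Stretches of 80 bases are shown for 5 of the genes with the lowest ratios and for PLK1, a gene of the rule, because their windows hold both words. All are written 5' to 3' on the gene's strand, and capitals mark TTTGAA and, in either direction, the CCAAT box (ATTGG when reversed). KIF23 lies at chr15:69414244-69414323 on the plus strand, ASF1B at chr19:14136587-14136666 on the minus strand, CDCA3 at chr12:6851277-6851356 on the minus strand, HJURP at chr2:233854617-233854696 on the minus strand, PRC1 at chr15:90994526-90994605 on the minus strand, and PLK1 at chr16:23678810-23678889 on the plus strand.
KIF23: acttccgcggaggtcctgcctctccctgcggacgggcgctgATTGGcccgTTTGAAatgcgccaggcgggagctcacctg
ASF1B: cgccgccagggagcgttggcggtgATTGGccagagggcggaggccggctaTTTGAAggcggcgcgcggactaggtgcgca
CDCA3: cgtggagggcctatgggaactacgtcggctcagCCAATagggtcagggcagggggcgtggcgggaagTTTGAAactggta
HJURP: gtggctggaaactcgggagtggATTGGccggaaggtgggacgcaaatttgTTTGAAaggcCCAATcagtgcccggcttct
PRC1: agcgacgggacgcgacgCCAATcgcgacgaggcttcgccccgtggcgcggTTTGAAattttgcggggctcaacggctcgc
PLK1: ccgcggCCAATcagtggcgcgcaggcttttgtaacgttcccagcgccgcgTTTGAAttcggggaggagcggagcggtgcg
The 6 stretches were picked for holding both words and do not stand for all genes. In CDK1, a gene of the rule, the CCAAT box follows TTTGAA, and the stretch around TTTGAA in HIST1H1B holds no box.

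Of the 45 mitosis genes measured, 37 matched a window, and 18 of these windows held TTTGAA (48.6%), 26 held CCAAT (70.3%) and 17 held both (45.9%). Of the 15 genes with the lowest ratios all 15 matched, and 9 held TTTGAA (60.0%). These 15 were picked by their ratios in cells that the rule had parted. Of the 11 summed genes of the rule 9 matched a window, and 5 of these held TTTGAA (55.6%). The share among the 15 is therefore a description and no separate finding. Among the 2052 measured genes with a window the share with TTTGAA was 8.67%, that with CCAAT 39.1% and that with both words 4.87%. Among all 27305 windows the same 3 shares were 15.4%, 35.7% and 6.08%. Of 30 replication genes with a window, 3 held TTTGAA (10.0%) and 18 held CCAAT (60.0%), so CCAAT was not particular to mitosis genes. An E2F word, TTTGGCGC, TTTCGCGC or TTTCCCGC, stood in 6 of the 30 (20.0%) and in 4.83% of the measured genes. TTCGAA, a variant of the CHR word, stood in 4 of the 37 mitosis windows (10.8%) and in 2.14% of the measured genes. Each match describes letters in a window and shows no binding.

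Within the mitosis lists the spindle and cytokinesis genes were lower without exception, 20 of 20 measured, with a median log2 ratio of -2.09. The chromatin protein gene HMGB2, which rises toward mitosis, had 343 CPM in cycle-poor cells and 1704 CPM in other cells, a ratio of -2.31 (-2.63 to -2.01), and at 1500 counts 31.8% of cycle-poor and 81.9% of other cells had a count. The tubulin genes TUBA1B and TUBB, which resting cells also use, had ratios of -0.86 (-0.96 to -0.75) and -0.73 (-0.90 to -0.57), though reads of near-identical tubulin copies may be split between rows. Of 14 mitotic kinase, cyclin and APC/C genes 13 were lower. AURKA, the spindle pole kinase, had 13 counts in cycle-poor cells and 251 in other cells, a ratio of -2.31. FOXM1, the factor that drives mitotic genes, had 28 counts in cycle-poor cells and 292 in other cells, a ratio of -1.43 (-2.04 to -0.86). The exception was ANAPC11, a ubiquitin ligase subunit of the APC/C, with 984 CPM in cycle-poor cells and 1051 CPM in other cells, a ratio of -0.09 (-0.29 to 0.10). It gave 28.5% of that list's counts, and without it the list's summed ratio went to -1.74, against -1.11 with it. Of 11 kinetochore, condensin and cohesin genes 9 were lower, among them NCAPD2 of condensin I at -1.98 and CENPF at -1.97, and the list stood at 759 CPM in cycle-poor cells and 2414 CPM in other cells, a ratio of -1.67 (-1.88 to -1.46).

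Replication genes were lower too. Of 97 members in 3 lists 33 reached 100 counts, and 24 of these were at least 1.5-fold lower in cycle-poor cells, 0 were higher, and their median log2 ratio was -1.04. Summed, they had 5034 CPM in cycle-poor cells (4770 to 5308) and 9666 CPM in other cells (9479 to 9856), a ratio of -0.94 (-1.02 to -0.86). That ratio was -0.97 in barcode set 1, -0.89 in set 2 and -0.86 among cells of 1500 to 3000 counts. At 1500 counts a cycle-poor cell had 1 to 29 counts of these genes with a median of 7, and another cell 3 to 30 with a median of 14. The ranges overlapped, and the upper quartile of cycle-poor cells, 10, lay below the lower quartile of other cells, 11.

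Among origin and fork genes 11 of 14 were lower. CDC45 of the replicative helicase had 6 counts in cycle-poor cells and 110 in other cells, a log2 ratio of -2.24. The helicase subunit genes MCM4, MCM5 and MCM7 had ratios of -1.86, -1.77 and -1.45, while MCM3 had -0.47. The polymerase delta subunit gene POLD2 had 472 CPM in cycle-poor cells and 466 CPM in other cells, a ratio of 0.02. Among nucleotide synthesis genes 6 of 10 were lower. The thymidine kinase gene TK1 had 192 CPM in cycle-poor cells and 568 CPM in other cells, a ratio of -1.57, and DUT, which clears dUTP, had -1.15. NME1, a nucleoside diphosphate kinase, had 811 CPM in cycle-poor cells and 989 CPM in other cells, a ratio of -0.29. In the E2F and checkpoint list 7 of 9 were lower, and the list's summed ratio was -1.25 (-1.42 to -1.08). Its interval overlapped those of the mitotic kinase list at -1.11 (-1.25 to -0.98) and the spindle list at -1.19 (-1.26 to -1.12). Without the member of most counts, NASP, ANAPC11 and TUBA1B, the 3 ratios were -1.25, -1.74 and -1.44. ASF1B, a histone chaperone, had 2 counts in cycle-poor cells and 132 in other cells, a ratio of -4.09 (-7.15 to -2.21). EZH2, the methyltransferase of Polycomb, had 3 counts in cycle-poor cells and 101 in other cells, a ratio of -3.12. E2F1, below the minimum of 100 counts, had 3 counts in cycle-poor cells and 77 in other cells. DNMT1, the maintenance DNA methyltransferase, and NASP, a histone chaperone, had ratios of -1.25 and -1.24.

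Histone genes other than HIST1H4C were lower as a list. Their counts were few. Most replication-dependent histone messages end in a stem loop without a poly(A) tail, while this assay reads polyadenylated RNA. Whether this made the counts few was not tested. Of 64 members 4 reached 100 counts and 3 were lower. The linker histone genes HIST1H1B, HIST1H1E and HIST1H1C had 4, 11 and 28 counts in cycle-poor cells and 98, 143 and 240 in other cells, ratios of -2.66, -1.74 and -1.14. HIST1H2BK, which can also be polyadenylated, had a ratio of -0.36 (-0.92 to 0.17). The list stood at 486 CPM in cycle-poor cells and 891 CPM in other cells, a ratio of -0.87 (-1.15 to -0.61). Genes of a histone family share much of their sequence, so a count may sit in a relative's row. Of 6 variant histone genes, which are made outside S phase too, 4 were lower. H2AFX, the variant marked at DNA breaks, had 14 counts in cycle-poor cells and 294 in other cells, a ratio of -2.44 (-3.32 to -1.67). H2AFZ had 907 CPM in cycle-poor cells and 2004 CPM in other cells, a ratio of -1.14 (-1.34 to -0.95), and H3F3B had -0.48 (-0.68 to -0.29).

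**Figure D3:**
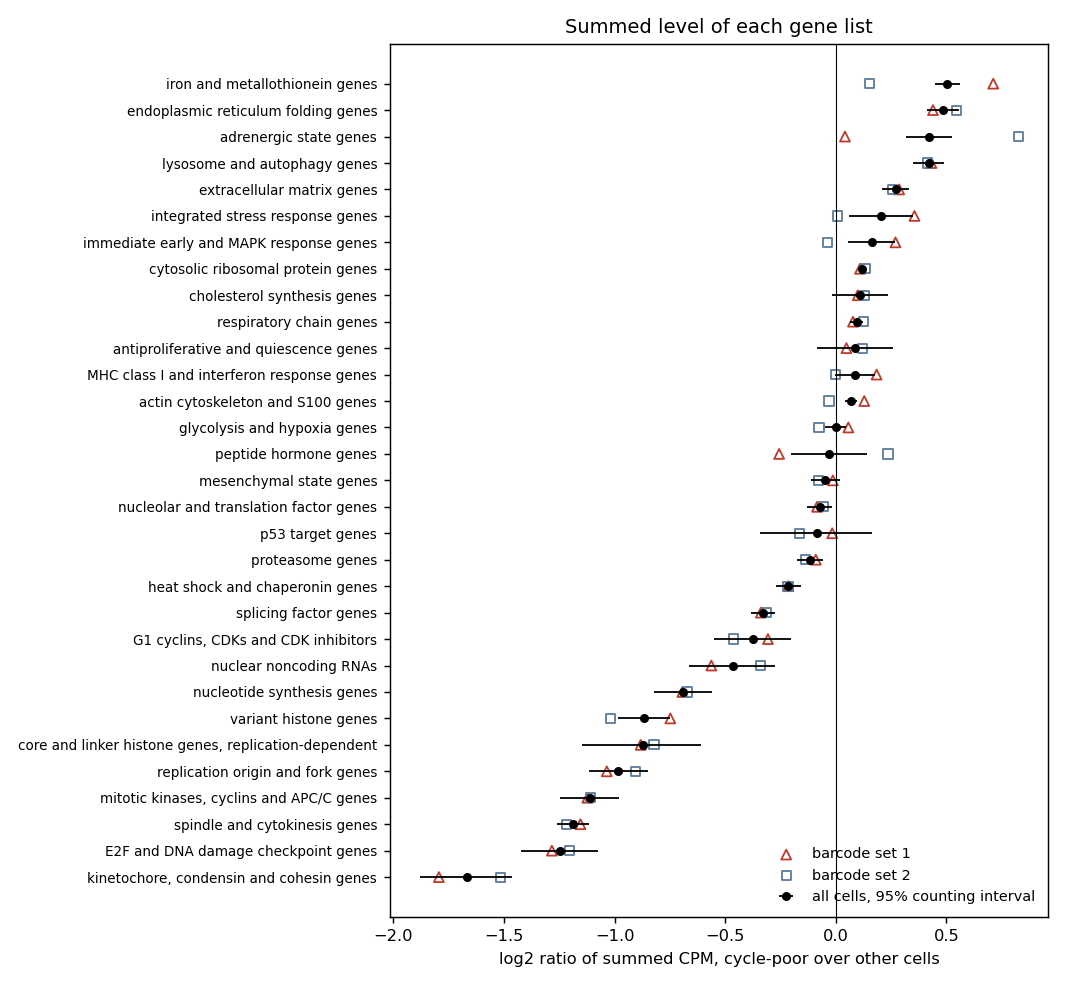
Log2 ratio of summed CPM in cycle-poor over other cells (x axis) for each gene list (y axis), with black points and bars for all cells and their 95% counting interval, red triangles for barcode set 1 and blue squares for set 2. The mitosis, replication and histone lists lie between -1.67 and -0.69, folding and lysosome genes at 0.49 and 0.42, and the adrenergic list at 0.42 with the sets at 0.04 and 0.83.

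Genes of the G1 phase and of growth arrest were compared next. Of 8 measured G1 cyclins, kinases and kinase inhibitors 3 were at least 1.5-fold lower and 0 higher, beside 11.4% and 4.01% of all 2467 genes. The list had a median log2 ratio of -0.35 and a summed ratio of -0.37 (-0.55 to -0.20). The 3 lower genes were all inhibitor genes. CDKN1A, which encodes p21 and is turned on by p53, had 14 counts in cycle-poor cells and 134 in other cells, a ratio of -1.30 (-2.21 to -0.51), and 6.36% of cycle-poor and 18.1% of other cells had a count at 1500 counts. Its ratio was -0.59 among cells of at least 2500 counts and -0.29 in the 34 cycle-poor cells with a sum of 0 and at most 1 HIST1H4C count. CDKN2C, which encodes p18, had a ratio of -1.02 (-1.63 to -0.46), and CDKN3, a phosphatase of cyclin-dependent kinases, -1.42. CDKN1B, which encodes p27 of resting cells, had 4 counts in cycle-poor cells and 15 in other cells, too few to compare. CCND1 and CCND3, cyclins D of early G1, had ratios of 0.11 (-0.37 to 0.57) and -0.04 (-0.46 to 0.36), and CDK4, with 18 counts in cycle-poor cells and 67 in other cells, 0.06. Of 40 antiproliferative and quiescence genes 3 reached 100 counts and 0 were past the fold, and the list had 1304 CPM in cycle-poor cells (1172 to 1448) and 1228 CPM in other cells (1162 to 1297). Below the minimum of 100 counts, and named after their values were seen, members of this list went both ways. The antiproliferative genes MXD4 and BTG2 were above the fold, with 22 and 8 counts in cycle-poor cells (81.1 and 29.5 CPM) and 44 and 5 in other cells (41.8 and 4.75 CPM). BTG3 was lower, with 5 counts in cycle-poor cells (18.4 CPM) and 70 in other cells (66.4 CPM). The p53 target list had 593 CPM in cycle-poor cells and 630.2 CPM in other cells, a ratio of -0.09 (-0.34 to 0.16), with TP53I3 the 1 member past the fold at 0.64 (-0.00 to 1.24).

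Genes of the secretory pathway stood higher. Of 14 endoplasmic reticulum folding genes 4 were at least 1.5-fold higher in cycle-poor cells, 0 were lower, 13 lay above 0 and the median log2 ratio was 0.45. Over all 2467 genes 4.01% were higher, 11.4% were lower and 46.8% lay above 0. Summed, they had 7495 CPM in cycle-poor cells (7173 to 7828) and 5355 CPM in other cells (5216 to 5497), a ratio of 0.49 (0.41 to 0.56), with 0.44 in barcode set 1 and 0.55 in set 2. Among cells of 1500 to 3000 counts the ratio was 0.37, and with the rule read on thinned cells it was 0.32. At 1500 counts a cycle-poor cell had 2 to 43 counts of the list with a median of 9, and another cell 0 to 27 with a median of 7. The 4 past the fold were HYOU1, a chaperone of the lumen, at 0.80 (0.27 to 1.31), CRELD2, a resident protein of the reticulum, at 0.79, the lectin chaperone gene CANX at 0.69 (0.30 to 1.07) and the disulphide isomerase gene PDIA4 at 0.68 (0.46 to 0.88). PDIA4 had 984 CPM in cycle-poor cells and 616 CPM in other cells. CALR, the calcium-binding lectin chaperone, had 2196 CPM in cycle-poor cells and 1527 CPM in other cells, a ratio of 0.52 (0.39 to 0.66), and P4HB, another disulphide isomerase, 0.35 (0.20 to 0.50). The integrated stress response list had 0 of 6 measured genes past the fold and a summed ratio of 0.21 (0.06 to 0.35), with 0.36 in set 1 and 0.01 in set 2.

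Lysosome and autophagy genes stood higher too. Of 19 measured 5 were at least 1.5-fold higher in cycle-poor cells, 0 were lower, 18 lay above 0 and the median log2 ratio was 0.34. The list had 8542 CPM in cycle-poor cells (8198 to 8897) and 6386 CPM in other cells (6234 to 6540), a ratio of 0.42 (0.35 to 0.49), with 0.43 in barcode set 1, 0.42 in set 2 and 0.38 among cells of 1500 to 3000 counts. At 1500 counts a cycle-poor cell had 4 to 30 counts of the list with a median of 12, and another cell 0 to 19 with a median of 9. GABARAP, an ATG8 protein of autophagosomes, had a ratio of 0.78 (0.16 to 1.37). The lysosomal protease gene CTSD had 236 CPM in cycle-poor cells and 141 CPM in other cells, a ratio of 0.74 (0.29 to 1.17), and the progranulin gene GRN 0.71. The autophagy receptor gene SQSTM1 had 1047 CPM in cycle-poor cells and 645 CPM in other cells, a ratio of 0.70 (0.49 to 0.90). The saposin gene PSAP had 0.67 (0.43 to 0.91), and CD63, a membrane protein of late endosomes, 0.44 (0.30 to 0.59).

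**Figure D4:**
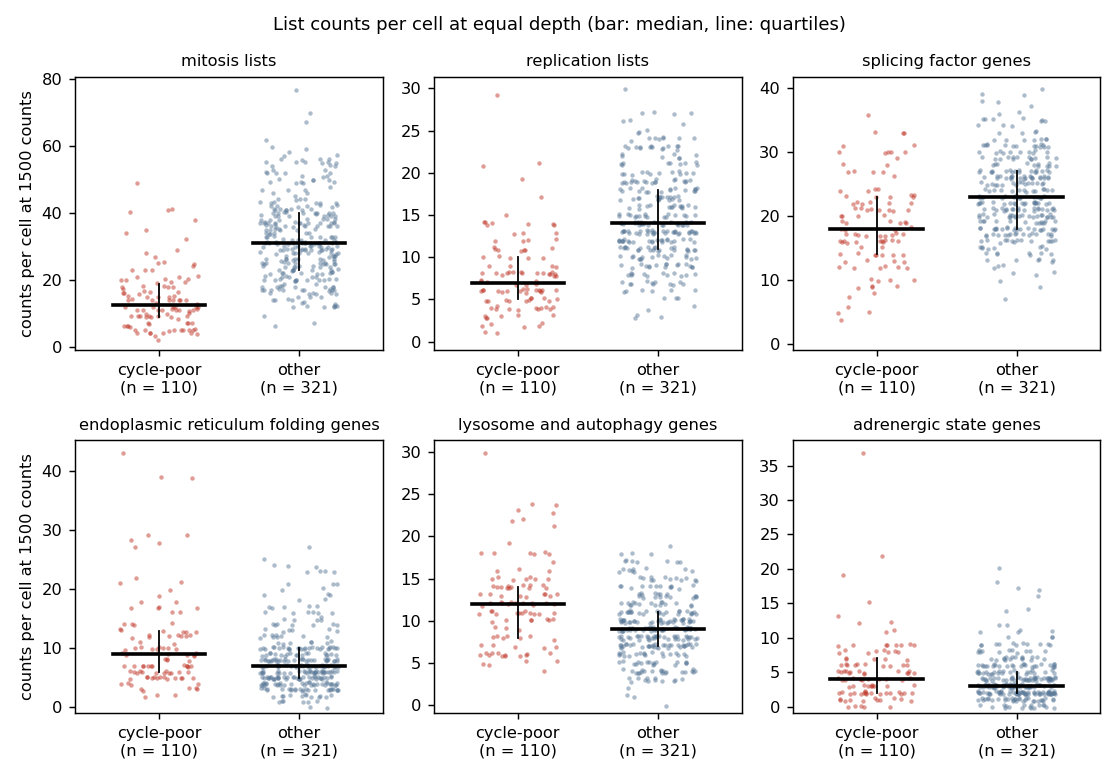
Counts per cell of 6 gene lists after thinning each cell to 1500 counts (y axis), for 110 cycle-poor cells (red, left) and 321 other cells (blue, right), with the median as a bar and the quartiles as a line. Medians are 12.5 and 31 for mitosis, 7 and 14 for replication, 18 and 23 for splicing, 9 and 7 for folding, 12 and 9 for lysosome and 4 and 3 for adrenergic genes, and the cells of both groups overlap in every panel.

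Ferritin and matrix genes held some of the higher values. FTL, the ferritin light chain in a row shared with a clone name, had 8582 CPM in cycle-poor cells and 5175 CPM in other cells, a log2 ratio of 0.73 (0.66 to 0.80), but this was 0.99 in barcode set 1 and 0.27 in set 2. The heavy chain gene FTH1 had 936 CPM in cycle-poor cells and 597 CPM in other cells, a ratio of 0.65 (0.43 to 0.86), with 0.63 in set 1 and 0.65 in set 2. Both genes have many processed copies in the genome, so their counts may be split. FTL gave 62.4% of the counts of the iron and metallothionein list, whose ratio was 0.50 with it and 0.09 without it, and MT2A, a metallothionein, lay the other way at -0.38 (-0.60 to -0.17). Of 20 extracellular matrix genes 4 were higher and 0 lower, beside 4.01% and 11.4% of all 2467 genes, with a median of 0.11. SPARC, a matrix glycoprotein, had 2351 CPM in cycle-poor cells and 1446 CPM in other cells, a ratio of 0.70 (0.57 to 0.84), and the list's summed ratio of 0.27 (0.21 to 0.33) was 0.17 without it. LAMC1, a laminin chain, DCN, the proteoglycan decorin, and COL18A1, a basement membrane collagen, had ratios of 0.78, 0.83 and 0.89.

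The 15 highest ratios lay between 0.94 and 1.37. The minimum of 100 counts over both groups bounds them, since a gene carried mainly by the smaller cycle-poor group seldom reached it. Below that minimum, and named after their values were seen, the granin gene CHGB had 29 counts in cycle-poor cells (107 CPM) and 7 in other cells (6.64 CPM). Likewise the autophagy gene WIPI1 had 28 counts in cycle-poor cells (103 CPM) and 22 in other cells (20.9 CPM), and HERPUD1 of reticulum stress had 28 in cycle-poor cells (103 CPM) and 27 in other cells (25.6 CPM). How far these low counts rest on few cells or on 1 barcode set was not measured. Other low-count members of these lists went the other way, such as SOX11 (7.37 CPM in cycle-poor and 30.4 CPM in other cells) and XBP1 (29.5 and 43.7 CPM). Among the 15, CHGA, the granin of secretory granules, led at 1.37 (0.89 to 1.84) with 64 counts in cycle-poor cells and 96 in other cells, but 5 cells of both groups gave 76.9% of its counts, and without them the ratio was 0.35. It was -1.79 in barcode set 1 and 3.36 in set 2. CCL2, a chemokine, had a ratio of 1.06 and -0.45 without its 5 richest cells. The tissue plasminogen activator gene PLAT had 638 CPM in cycle-poor cells and 292 CPM in other cells, a ratio of 1.12 (0.85 to 1.40), with 1.49 in set 1 and 0.28 in set 2. DDC, a decarboxylase of catecholamine synthesis, had 1.11 (0.73 to 1.49), with -0.43 in set 1 and 1.76 in set 2. CHGA, CCL2, PLAT and DDC rest on few cells or on 1 barcode set. PLAT had 637 CPM in other cells with only HIST1H4C over its limit, close to its level in cycle-poor cells. In other cells over the sum alone and over both limits PLAT had 226 and 269 CPM. CHGA had 236 CPM in cycle-poor cells and 686, 16.6 and 32.3 CPM in the same 3 kinds of other cells. More even were SCPEP1, a serine carboxypeptidase, at 1.18 (1.07 in set 1 and 1.32 in set 2), MKNK2, a kinase of the translation factor eIF4E in a row shared with a clone name, at 1.15 (0.97 and 1.36), the lipid receptor gene PPARG at 1.09 (1.09 and 0.90), FAM134A at 1.20 (1.51 and 0.88) and the chromatin remodeller subunit gene INO80B at 1.02 (1.13 and 0.98). The sterol enzyme gene MSMO1, the reductase gene AKR1C1, CLIP3, C5orf32, the splicing regulator gene RBFOX2 and BLCAP completed the 15, at 1.06, 0.99, 0.98, 0.96, 0.96 and 0.94.

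Neuroblastoma cells can lie in a mesenchymal or an adrenergic state, and both lists were compared. The mesenchymal list had 8951 CPM in cycle-poor cells and 9246 CPM in other cells, a log2 ratio of -0.05 (-0.11 to 0.02), with ID2, an inhibitor of differentiation factors, higher at 0.59 (0.22 to 0.96) and FOSL1, an AP-1 subunit, lower at -0.80 (-1.31 to -0.32) of 9 measured. The adrenergic list had 3821 CPM in cycle-poor cells and 2851 CPM in other cells, a ratio of 0.42 (0.32 to 0.52), yet 0.04 in barcode set 1 and 0.83 in set 2. Of its 10 measured genes 3 were higher, beside 4.01% of all 2467 genes. Other cells with only HIST1H4C over its limit had 4163 CPM, and the ratio of cycle-poor cells over them was -0.12 (-0.29 to 0.04). Other cells over the sum alone had 2919 CPM and those over both limits 2614 CPM. GATA2, a sympathetic lineage factor, had 0.66 (0.27 to 1.05) with 0.67 and 0.66 in sets 1 and 2, while CHGA and DDC, the other members past the fold, split by set as above. SCG2, secretogranin II, had 929 CPM in cycle-poor cells and 755 CPM in other cells, a ratio of 0.30 (0.09 to 0.51). Of 5 measured peptide hormone genes 0 were past the fold, and the list's summed ratio was -0.03 (-0.20 to 0.14) but 0.93 when the rule did not use HIST1H4C, and INS-IGF2, in a row shared with INS, had 811 CPM in cycle-poor cells and 865 CPM in other cells. Of 8 immediate early and MAPK response genes 1 was past the fold, the phosphatase gene DUSP4 at 0.71 (0.11 to 1.28).

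Housekeeping lists were near 0, with a few exceptions. Ribosomal protein genes took 17.7% of counts in cycle-poor cells and 16.3% in other cells, a log2 ratio of 0.12 (0.10 to 0.13), and of 67 measured 0 were higher and 1, RPS24, was lower. Respiratory chain genes had a ratio of 0.09 with 0 higher and 1 lower of 71, glycolysis and hypoxia genes -0.00 with 0 higher and 1 lower of 15, proteasome genes -0.12 with 0 higher and 1 lower of 32, and nucleolar and translation factor genes -0.07 with 0 higher and 2 lower of 24. The lactate dehydrogenase gene LDHB was the lower glycolysis gene at -0.93 (-1.42 to -0.47). Cholesterol synthesis genes had 0.11 with 1 higher and 1 lower of 13, MHC class I and interferon genes 0.09 with 1 higher and 1 lower of 9, and actin and S100 genes 0.07 with 1 higher and 1 lower of 33.

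Splicing factor genes stood lower as a list. Of 32 measured 6 were at least 1.5-fold lower in cycle-poor cells, 0 were higher, 28 lay below 0 and the median log2 ratio was -0.41. Over the 2467 genes 11.4% were lower, 4.01% were higher, 46.8% lay above 0 and the median was -0.03. The list had 12076 CPM in cycle-poor cells (11666 to 12496) and 15181 CPM in other cells (14947 to 15418), a ratio of -0.33 (-0.38 to -0.28), with -0.34 in barcode set 1 and -0.31 in set 2. At 1500 counts a cycle-poor cell had 4 to 36 counts with a median of 18, and another cell 7 to 40 with a median of 23. SRSF1, an SR splicing factor, had 9 counts in cycle-poor cells and 94 in other cells, a ratio of -1.43 (-2.60 to -0.44). HNRNPAB, an RNA-binding protein of the hnRNP family, had 380 CPM in cycle-poor cells and 685 CPM in other cells, a ratio of -0.85 (-1.16 to -0.55), and SNRPD2, a core protein of spliceosomal particles, -0.02. Of 22 heat shock and chaperonin genes 6 were lower and 0 higher, beside 11.4% and 4.01% of all 2467 genes. Their summed ratio was -0.21 (-0.27 to -0.16). HSP90AA1, the inducible cytosolic HSP90, had 534 CPM in cycle-poor cells and 915 CPM in other cells, a ratio of -0.78 (-1.04 to -0.52), and HSPD1, the mitochondrial chaperonin, -0.69. HSP90AB1, the constitutive relative of HSP90AA1, had -0.12 (-0.25 to 0.00). MALAT1, a nuclear noncoding RNA, had 19 counts in cycle-poor cells and 390 in other cells, a ratio of -2.40 (-3.15 to -1.74), and -1.86 without the 5 cells that gave 31.1% of its counts.

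The other cells are themselves of 3 kinds, and the cycle-poor cells were set beside each. In 36 cells only HIST1H4C was over its limit, in 102 only the sum of the 11 genes, and in 183 both. The mitosis lists stood at 9113 CPM in cycle-poor cells, 12863 CPM in cells over the limit for HIST1H4C alone, 24408 CPM in those over the sum alone and 21059 CPM in those over both (20708 to 21415). Replication lists stood at 5034 CPM in cycle-poor cells and at 8738, 8273 and 10458 CPM in the same 3 kinds. Folding genes had 7495 CPM in cycle-poor cells and 4928, 5311 and 5443 CPM in the 3 kinds, and lysosome genes 8542 CPM in cycle-poor cells and 6848, 6067 and 6461 CPM. For both lists, and for splicing factors at 12076 CPM in cycle-poor cells against 14518, 15740.0 and 15026 CPM, the counting intervals of cycle-poor cells and of each kind did not overlap. MALAT1 was uneven, with 70.0 CPM in cycle-poor cells, 108 CPM in cells over HIST1H4C alone, 1131 CPM over the sum alone and 58.5 CPM over both, so its high level among other cells lay in the sum-only kind. The peptide hormone list had 1301 CPM in cycle-poor cells and 3899 CPM in cells over HIST1H4C alone, with 1297 and 940.0 CPM in the remaining kinds.

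**Figure D5:**
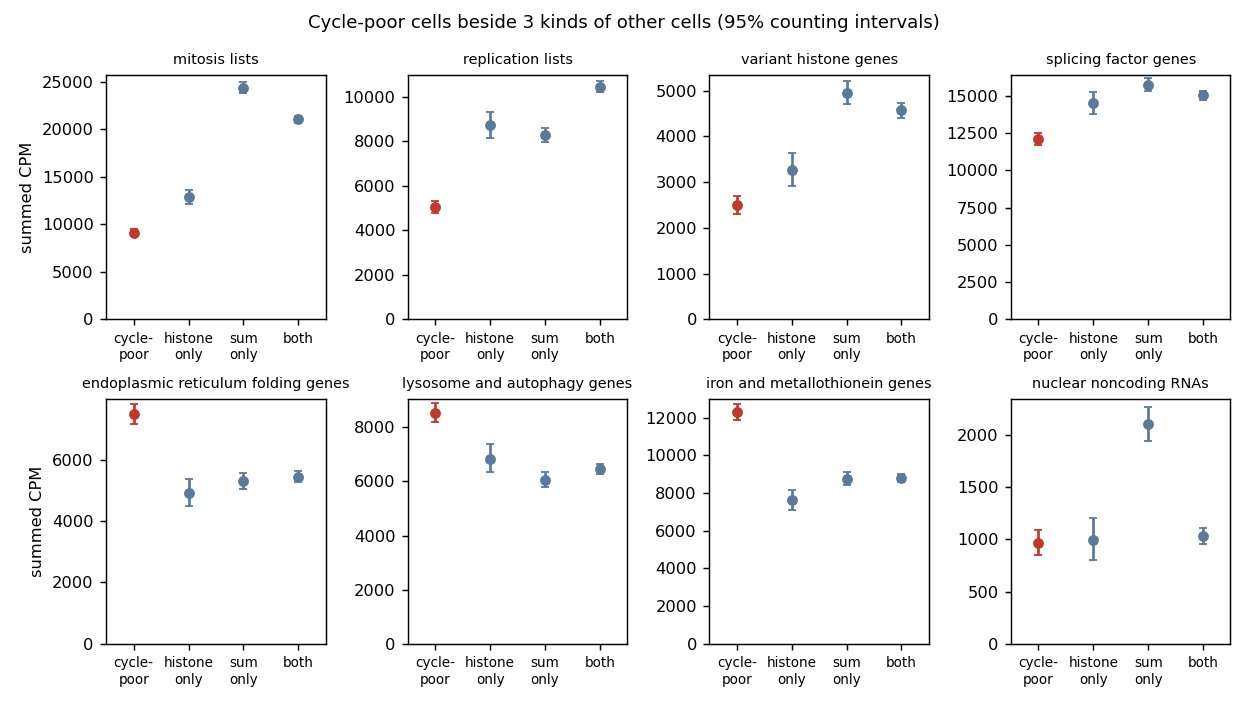
Summed CPM of 8 gene lists (y axes, from 0) in cycle-poor cells (red) and in other cells over the limit for HIST1H4C only, for the sum only, or for both (blue), with 95% counting intervals. Folding, lysosome and iron genes are highest and mitosis, replication, variant histone and splicing genes lowest in cycle-poor cells, while nuclear noncoding RNAs are highest in the sum-only cells at 2103 CPM.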

How the data were processed

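Whole-number counts of genes in single cells were deposited by the authors without normalization. The submitters' processing notes name Bowtie2 2.1.0 and the build hg19. Whether a count is a molecule or a read, and the counting tool, annotation and cell filter, stand in none of the sources used. The table held 603 cells, 27044 rows and 1537576 counts, with totals of 1000 to 42404 and a median of 2106 counts per cell; 172 cells below 1500 counts were left out. A row named unknown with 2 counts was left out. No doublet caller was run because single cells were sorted into wells.

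Counts were summed over the cells of each group and scaled to CPM. Ratios carry exact conditional binomial intervals, levels exact Poisson intervals and shares exact Clopper-Pearson intervals, at 95%. For values per cell, cells were thinned to 1500 counts with seed 7. With cells of 1 pooled sample no test was made, and edgeR and DESeq2 were not run. The calculation was tested on counts simulated from a common profile with known folds put in. These hold no variation between cells beyond sampling and no choice of cells by the rule. They therefore check the arithmetic alone. Python 3.11.15, numpy 2.4.6, pandas 2.3.3, scipy 1.17.1 and matplotlib 3.10.9 were used.

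The rule, its 12 genes and the 35 gene lists were chosen with earlier results of these data known. Named genes are, among genes of at least 100 counts, the 15 highest and 15 lowest ratios and, per list, the 3 members of highest CPM and up to 4 furthest from 0; a few of them are left out, and CDKN1B, CDK4, E2F1, AXL and markers of other cells are named from the lists. Promoter sequences come from RefSeq on GRCh38.p14, matched by symbol, and were not joined to hg19 coordinates. Alternatives covered depth, the rule's limits, barcode sets, scaling, cell weights, folds and count minimums.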

Additional observations from a re-analysis of the deposited data

How the results depend on the processing

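No paired analysis was possible because all cells form 1 pool and the columns carry no sample or replicate number. A count was held to have moved when it changed by over 1.5 times, a log2 ratio when it left its counting interval, which is narrow for large lists, and genes per cell when they changed by over 1 SD. By this, 40 of 111 recomputed main values moved, 71 did not and 0 reversed. Mitosis, replication and histone log2 ratios kept their sign throughout, from -1.67 to -1.02, -1.20 to -0.69 and -1.19 to -0.52. With the rule read on thinned cells they were -1.07, -0.75 and -0.52; with the comparison thinned as well, mitosis was -1.02, replication -0.73, and 31 genes were higher and 72 lower. A minimum of 1000 counts gave 185 cycle-poor cells, 662 genes per cell at 1000 counts (678 in other cells) and -1.08 for mitosis; one of 2500 gave 35 cells, -1.54 and -1.14. Cells of 1500 to 3000 counts gave 39 higher and 84 lower genes, -1.08 and -0.86. A sum of 0 with at most 1 HIST1H4C count gave 34 cells, 197 higher and 462 lower genes, and -1.67, -1.20 and -1.19. Looser limits gave -1.10 and -0.76, the sum without HIST1H4C -1.13 and -0.69, and equal weight per cell -1.13 for mitosis. Barcode set 1 gave 65 cells, 65 higher and 119 lower genes, and set 2 45 cells, 61 and 149. A fold of 2 left 10 and 112 genes, a minimum of 50 counts 290 and 615, and one of 200 counts 33 and 92. Among lists whose interval left out 0 and genes past the fold, signs turned for RPS24 on thinned cells (0.28 and 0.024), for the immediate early list at 2500 counts and in set 2 (-0.044 and -0.039), for CHGA, AKR1C1 and ID2 under the stricter limits (-1.81, -0.031 and -0.22), for CHGA and DDC in set 1 (-1.79 and -0.43), for the actin list and COX7A2 in set 2 (-0.031 and 0.0077), and for CCL2 without its 5 richest cells (-0.45). Lists near 0 or of few counts also crossed it, with highs or lows of 0.93 for peptide hormones and 0.27 for endothelial markers without HIST1H4C in the rule, 0.26 for Schwann cell precursor markers and 0.04 for p53 targets on thinned cells, 0.07 for glycolysis under the stricter limits and -0.0024 for MHC genes in set 2. CDKN1A ran from -1.86 to -0.29. Where no construction shows it, the cause was not tested. Depth limits the low ratios, since 1 to 7 counts stand behind many of them.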
